A study of Mus musculus with 17 samples.

Results

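Expression of the ERBB receptors and of the genes that restrain them was followed as a set of 8 genes in stellate cells of the mouse pancreas, which can turn into fibroblasts. The set was chosen by gene name and matched to Ensembl gene IDs. It holds the 4 receptor genes Egfr, Erbb2, Erbb3 and Erbb4 and 4 genes for negative regulators, Errfi1, Lrig1, Lrig3 and Cbl. These are 8 of the 35896 gene IDs in each deposited table. Of the 8 genes, 7 passed the filter on low counts that left 13923 genes for testing. Erbb4 did not, so it is described by its counts and level and was tested only in an alternative with no filter.

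ERBB receptors are cell surface tyrosine kinases that are switched on when a ligand of the EGF or neuregulin families brings receptors together in pairs, after which they drive the RAS to ERK and the PI3K to AKT cascades. EGFR binds EGF-type ligands, ERBB3 and ERBB4 bind neuregulins, and ERBB2 has no known ligand of its own and serves as a partner of the others. The signal is limited by proteins that act on the receptor itself: ERRFI1 (also called MIG6) binds and blocks the kinase domain and is itself a gene switched on by growth factor signalling, LRIG1 promotes receptor degradation, and CBL attaches ubiquitin to activated receptors.

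All cells were wild-type C57BL/6J stellate cells of 2 lines, PSC4 and PSC5, grown in Matrigel (a basement membrane gel) for the 4 days of treatment. The 17 libraries fall into 4 groups: control medium (5 libraries, cells the series calls quiescent), TGF-beta at 20 ng/mL in control medium (4 libraries, called myCAFs by the series), medium conditioned by tumour organoids (4 libraries, CM below), and CM with 300 nM neratinib (4 libraries). Neratinib is an irreversible inhibitor of the kinases of EGFR, ERBB2 and ERBB4. The numbered replicates are passages of the lines (23, 24 and 25 for PSC4 numbers 1, 2 and 3, and 27 and 28 for PSC5 numbers 1 and 2), so p-values measure the spread between passages of 2 lines and not between animals. TGF-beta has no library of PSC4 number 1, and control alone has all 5 numbered cultures. The labels give each CM library a code, T8 (number 1 of each line) or T6 (number 2), without saying what it stands for, so code and number cannot be told apart there.

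The promoter bases of 3 genes that changed in CM are shown because Errfi1 and Lrig1 were both higher in CM than in control and lower once neratinib was added, while Egfr was higher with and without neratinib. Each is the 250 bases before a RefSeq transcription start on GRCm38.p6, read in the direction of the gene, with a match to a searched motif in capitals. They lie at chr4:150854820-150855069 on the plus strand (the second of 2 RefSeq starts of Errfi1), chr6:94700146-94700395 on the minus strand (Lrig1) and chr11:16751953-16752202 on the plus strand (Egfr).
Errfi1: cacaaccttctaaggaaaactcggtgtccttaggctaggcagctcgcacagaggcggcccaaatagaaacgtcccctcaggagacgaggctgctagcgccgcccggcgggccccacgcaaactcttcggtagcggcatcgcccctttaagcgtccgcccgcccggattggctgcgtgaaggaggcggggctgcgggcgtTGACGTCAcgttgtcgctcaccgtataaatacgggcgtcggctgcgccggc
Lrig1: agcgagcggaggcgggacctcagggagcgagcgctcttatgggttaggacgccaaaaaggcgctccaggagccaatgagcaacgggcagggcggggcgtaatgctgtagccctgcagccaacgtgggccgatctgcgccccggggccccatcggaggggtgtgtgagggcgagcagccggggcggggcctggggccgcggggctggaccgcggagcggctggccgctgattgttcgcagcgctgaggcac
Egfr: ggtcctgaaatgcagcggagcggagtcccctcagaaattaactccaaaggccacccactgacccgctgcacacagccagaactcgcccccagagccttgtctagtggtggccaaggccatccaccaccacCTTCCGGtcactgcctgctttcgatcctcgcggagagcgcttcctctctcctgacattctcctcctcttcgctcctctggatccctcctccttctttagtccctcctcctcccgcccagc
The motifs searched on both strands were CRE (TGACGTCA, the site of CREB-type factors), AP-1 (TGANTCA), EGR (GCGTGGGCG), ETS (CCGGAAG), TEAD (GGAATG) and the CArG box of serum response factor. In the Errfi1 sequence the capitals mark a CRE match from -51 to -44 relative to the start, a match held by 1.55% of 32851 mouse promoters of this length. In the Egfr sequence they mark an ETS match on the opposite strand from -120 to -114, held by 6.91% of promoters. The Lrig1 sequence holds none of these motifs. Of the other promoters in the set, the first Errfi1 start and those of Erbb2, Lrig3 and Cbl hold a TEAD match, as do 12.6% of all promoters, and none of the 8 promoters found for 7 members holds an AP-1, EGR or CArG match (held by 6.75%, 0.536% and 1.47% of promoters). These matches describe letters only, and no 2 of them overlap.

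The libraries held 22168953 to 29421447 counts each. Levels are given in CPM, the count of a gene scaled to a common library total with TMM factors, and 3 counts in a library stand for 0.101 to 0.137 CPM. All 12 stellate and fibroblast markers had counts in every library, with a summed level of 5693 to 7184 CPM in control, 10052 to 20632 CPM with TGF-beta, 6063 to 7248 CPM in CM and 4507 to 7305 CPM with neratinib. Pdgfra, a PDGF receptor of fibroblasts, had 60.5 to 336 CPM in the neratinib libraries and 366 to 610 CPM in CM. Neratinib PSC4 number 1 had the lowest Col1a1 and Pdgfrb of the 17 libraries (422 and 103 CPM). The summed level of 7 immune markers was 13.5 CPM in that library and 1.97 to 3.72 CPM in the other 16, and that of 6 endothelial markers 1.12 to 4.80 CPM over all. Of these markers Adgre1, Cd3e and Cldn5 were at 0 in all libraries, while Cd68 (34 to 289 counts), Csf1r (9 to 30), Lyz2 (1 to 9), Kdr (10 to 76), Pecam1 (5 to 20) and Cdh5 (2 to 18) had counts in each. The immune sum of neratinib PSC4 number 1 was 317 counts, and Cd68 was the only immune marker above 30 counts in any library. Ptprc, also an immune marker, had at most 1 count in any library and 0 in that one. In control and CM, the libraries labelled PSC4 number 1 stood with those of PSC5 and apart from the other PSC4 libraries in Egfr and Errfi1, so every comparison was also computed without the 3 libraries of that label. The summed level of 16 epithelial markers was 16.0 to 27.9 CPM in control and TGF-beta libraries, 10.1 to 53.8 CPM in CM libraries coded T8 with and without neratinib, and 152 to 334 CPM in those coded T6. In bulk RNA, fewer cells of a kind and less RNA per cell cannot be told apart.

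Receptor and inhibitor genes were both among those that changed in each medium. Against control, TGF-beta raised Erbb3, Lrig3 and Cbl and lowered Egfr and Erbb2 (5 of 7 tested genes called by edgeR at an adjusted p under 0.05, against 40.2% of all tested genes). CM raised Egfr, Errfi1 and Lrig1 against control (3 of 7, against 14.2% of all genes). Neratinib lowered Errfi1, Lrig1 and Erbb2 against CM alone (3 of 7, against 20.5% of all genes) while Egfr differed from CM by -0.06 on the log2 scale. All 3 falls were also called without neratinib PSC4 number 1, at -1.19, -0.68 and -0.32 on the log2 scale (edgeR adjusted p 0.000318, 0.011 and 0.0334), and the part of the stellate marker values in them was not tested. Compared with control, CM with neratinib had higher Egfr and lower Errfi1, Erbb2 and Lrig3 (4 of 7, against 43.1%). CM compared directly with TGF-beta had higher Egfr, Errfi1 and Erbb2 and lower Lrig3 and Cbl (5 of 7, against 35.3%). With 7 genes, 1 gene more or less moves such a share by a wide step, and nothing particular to the set is read from these shares. In the same order of comparisons, the 2 groups did not overlap for 2, 2, 3, 3 and 3 of the 7 tested members. Over all tested genes the shares without overlap were 32.7%, 19.8%, 18.7%, 29.4% and 31.5%. Nothing particular to the set is read from these counts either. The comparisons share libraries: control stands in 3 of them and CM in 3.

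**Figure D1:**
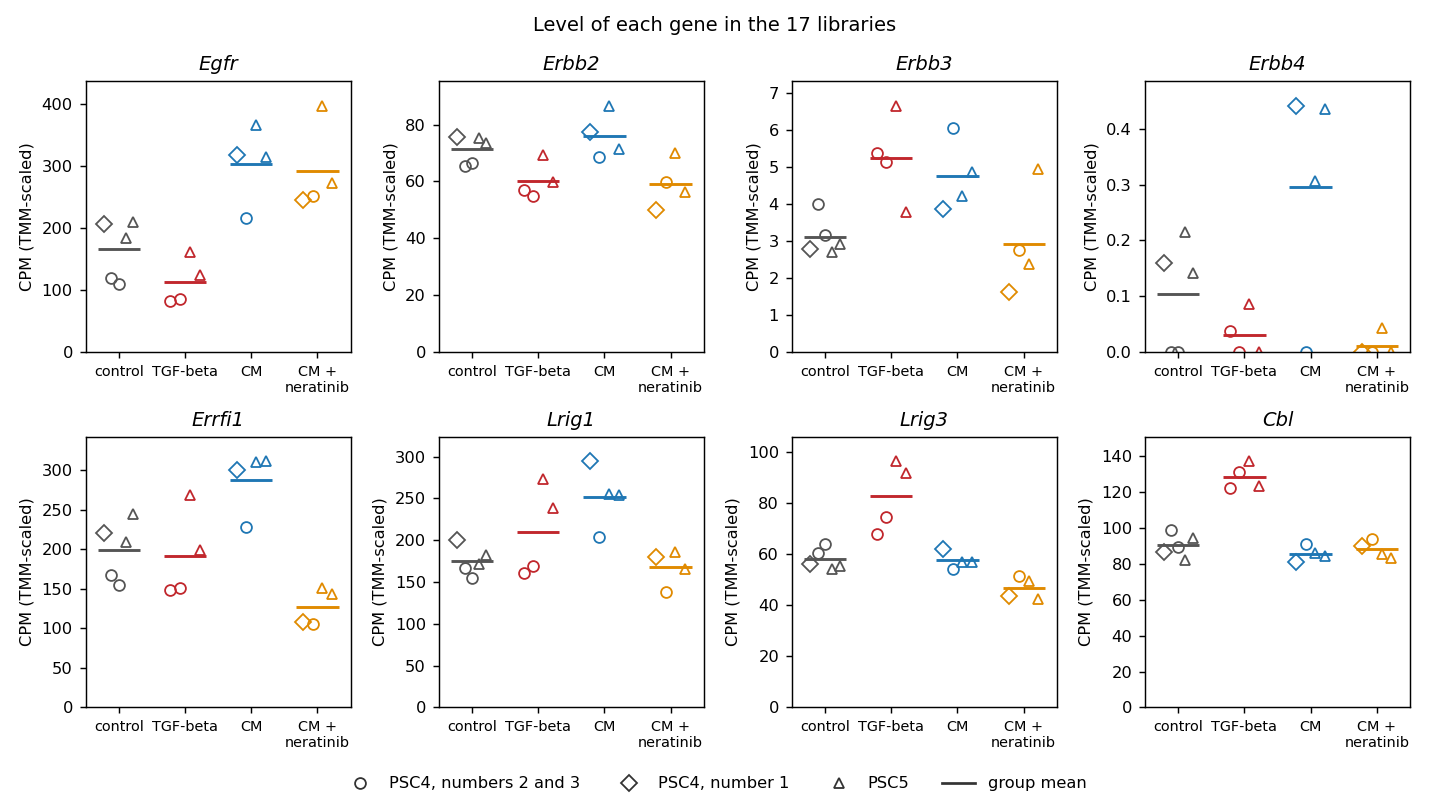
Level of each of the 8 genes in CPM (linear axis from 0) in every library, by group, with the group mean as a bar; circles are PSC4 numbers 2 and 3, diamonds PSC4 number 1 and triangles PSC5. Egfr is higher in all CM libraries, with and without neratinib, than in any control library, Errfi1 is lower in all neratinib libraries than in any control or CM library, and Cbl is higher in all TGF-beta libraries than in any other.

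Egfr (ENSMUSG00000020122, chr11:16752203-16918158, plus strand), the receptor for EGF, amphiregulin, epiregulin and other EGF-type ligands, had 206, 119, 109, 183 and 209 CPM in control medium, listed as PSC4 numbers 1, 2 and 3 and then PSC5 numbers 1 and 2, the order used throughout. With TGF-beta (PSC4 numbers 2 and 3, PSC5 numbers 1 and 2) it had 82.8, 85.7, 161 and 124 CPM. Each TGF-beta library lay under the control library of the same line and number, but the groups overlapped, because PSC5 with TGF-beta was above PSC4 numbers 2 and 3 in control. This was a log2 fold change of -0.62 (SE 0.18, edgeR adjusted p 0.0141). It was -0.78 in PSC4 and -0.46 in PSC5, neither under 0.05 on its own (edgeR adjusted p 0.0528 and 0.307). The PSC4 value includes control PSC4 number 1 (206 CPM), which has no TGF-beta partner. With the PSC4 number 1 libraries counted with PSC5, the change over both lines was -0.48 (edgeR adjusted p 0.00802). With 1 library left out it ran from -0.74 to -0.45. The call was kept in 16 of 18 alternative fits. It was lost without TGF-beta PSC4 number 2 (-0.56, edgeR adjusted p 0.0513) and with no term for the line. In CM (numbers 1 and 2 of each line) Egfr had 317, 215, 365 and 314 CPM, all above the highest control library. The rise was 1.78-fold (log2 fold change 0.83, SE 0.18, edgeR adjusted p 0.00827), and it was called in all 19 alternative fits. Within the lines it was 0.88 in PSC4 and 0.79 in PSC5, neither under 0.05 on its own (edgeR adjusted p 0.124 and 0.245). With neratinib the values were 245, 251, 397 and 272 CPM, again all above control and spread over the same range as CM alone. The log2 fold change was 0.77 against control (SE 0.18, edgeR adjusted p 0.00358) and -0.06 against CM (SE 0.19, edgeR adjusted p 0.845), a difference smaller than its error. CM exceeded TGF-beta by 1.45 on the log2 scale (SE 0.19, edgeR adjusted p 4.45e-05), the widest gap of any tested member in the 5 group comparisons, and the groups did not overlap.

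Erbb2 (ENSMUSG00000062312, chr11:98412470-98437716, plus strand), the partner receptor, was lower with TGF-beta and with neratinib. Its control libraries had 75.6, 65.6, 66.5, 75.4 and 73.7 CPM. The TGF-beta libraries had 56.8, 55.0, 69.4 and 59.9 CPM, of which only PSC5 number 1 reached into the control range. With TGF-beta it fell by 0.26 on the log2 scale (SE 0.08, edgeR adjusted p 0.023). That call was lost when control PSC4 number 1 (adjusted p 0.0522), TGF-beta PSC4 number 2 (0.0546), TGF-beta PSC4 number 3 (0.0690) or TGF-beta PSC5 number 2 (0.0686) was left out. It was lost with no term for the line too, and was kept in 13 of 18 alternative fits. CM alone had 77.2, 68.7, 86.7 and 71.5 CPM, and its difference from control was 0.08 (SE 0.08, edgeR adjusted p 0.591). With neratinib the libraries had 50.0, 59.7, 69.9 and 56.3 CPM. Each of these was below the CM library of its own line and number, but PSC5 number 1 overlapped the lowest CM library. Neratinib changed Erbb2 by -0.37 against CM on the log2 scale (SE 0.09, adjusted p 0.01) and -0.29 against control (SE 0.08, edgeR adjusted p 0.0125). Without the 3 PSC4 number 1 libraries these became -0.28 (adjusted p 0.0532) and -0.21 (adjusted p 0.0687), and without neratinib PSC4 number 1 alone the second had an adjusted p of 0.0502. The call against CM was kept in 15 of 18 alternative fits. It was also lost with only the 2 groups in the fit and without the T6 libraries. The exons of Erbb2 overlap those of Mien1 on the other strand by 9 bases, and Mien1 rose with neratinib against CM (log2 fold change 0.38, edgeR adjusted p 0.0351).

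Erbb3 (ENSMUSG00000018166, chr10:128567523-128589652, minus strand), a neuregulin receptor whose own kinase is weak, was read at 38 to 172 counts a library. Control libraries had 2.78, 4.00, 3.17, 2.69 and 2.91 CPM. With TGF-beta it had 5.37, 5.13, 6.66 and 3.78 CPM, and 3 of the 4 lay above all control libraries. TGF-beta raised Erbb3 by 0.74 on the log2 scale (SE 0.27, edgeR adjusted p 0.0394). The call was kept in 10 of 18 alternative fits. It was lost without control PSC4 number 1 (adjusted p 0.0690), PSC4 number 3 (0.0585), PSC5 number 1 (0.0943) or PSC5 number 2 (0.0826), and without TGF-beta PSC4 number 2 (0.0885), PSC4 number 3 (0.0777) or PSC5 number 1 (0.112), and with upper-quartile scaling (0.0586). Erbb3 is also a gene of Schwann and epithelial cells, so their markers are given beside it. Sox10, a Schwann lineage factor, had 31 to 57 counts in the TGF-beta libraries and at most 1 count in any other, while Foxd3 was at 0 throughout. The summed level of 6 Schwann markers was 9.03 to 13.0 CPM with TGF-beta and 5.64 to 8.97 CPM in control. By library, in the order of the Erbb3 values, Sox10 had 50, 49, 31 and 57 counts with TGF-beta. Among epithelial markers, Krt18 had 2.42 to 7.89 CPM with TGF-beta and 0.177 to 0.572 CPM in control. Krt8 had 5 to 25 counts with TGF-beta and 0 to 2 in control, and Cdh1 had 9 to 33 and 0 to 4. Krt19 overlapped, at 1.26 to 7.14 CPM with TGF-beta and 3.29 to 6.76 CPM in control. The summed level of 16 epithelial markers also overlapped (16.0 to 22.2 and 17.1 to 27.9 CPM). Whether either cell type bears on the Erbb3 values was not tested.

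In CM, Erbb3 had 3.87, 6.07, 4.21 and 4.86 CPM, and the log2 fold change from control of 0.60 (SE 0.27) did not pass the test (edgeR adjusted p 0.152). The 2 highest CM values were the libraries coded T6. With neratinib the values were 1.62, 2.76, 2.38 and 4.95 CPM. In 3 of 4 pairs the neratinib library was lower than its CM partner, and PSC5 number 2, coded T6, was not. Against CM the fitted change was -0.71 (SE 0.29, edgeR adjusted p 0.0935), and it became -1.09 (adjusted p 0.0142) when neratinib PSC5 number 2 was left out. That library also had the highest epithelial sum of all 17 (334 CPM). Within the conditioned media, T6 libraries had more Erbb3 than T8 libraries by 0.68 on the log2 scale (SE 0.23, unadjusted p 0.0114), which did not hold after adjustment (edgeR adjusted p 0.213). Krt8, a keratin of simple epithelia, had 972 to 2052 counts in T6 libraries, 0 to 219 in T8 libraries and 0 to 2 in control libraries. Krt19, another keratin, had 396 to 855, 73 to 211 and 92 to 170 counts in the same sets. Erbb3 had 70 to 112 counts in control libraries. The share of epithelial RNA in the CM values of Erbb3 was not tested. When the T6 libraries were left out, an alternative chosen after the data were seen, CM differed from control by 0.38 (adjusted p 0.377) and neratinib from CM by -1.01 (adjusted p 0.112).

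**Figure D2:**
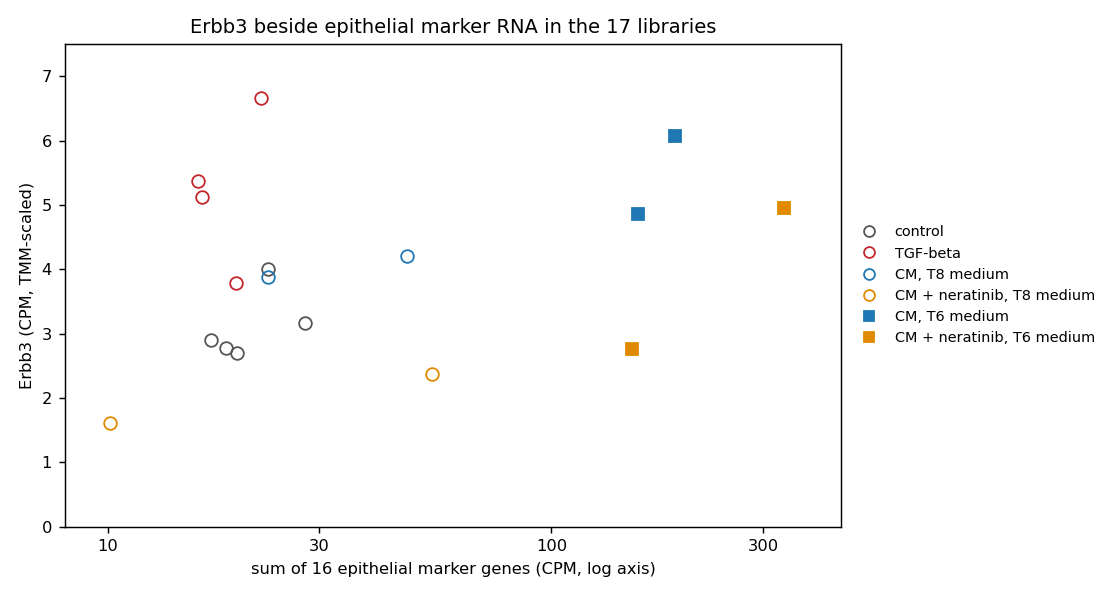
Erbb3 level (CPM, linear axis) against the summed level of 16 epithelial markers (CPM, log axis) in the 17 libraries; filled squares are conditioned media coded T6. The T6 libraries sit at 152 to 334 CPM of epithelial markers and the TGF-beta libraries at 16.0 to 22.2 CPM. The sum does not show single markers, of which Krt8, Krt18 and Cdh1 were higher with TGF-beta than in control. Krt19 and the sum itself overlapped between these groups.

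Erbb4 (ENSMUSG00000062209, chr1:68032186-69108059, minus strand), the other neuregulin receptor, was close to absent from the libraries. Its counts were 4, 0, 0, 6 and 4 in control, 1, 0, 2 and 0 with TGF-beta, 13, 0, 8 and 13 in CM and 0, 0, 1 and 0 in CM with neratinib. All TGF-beta and neratinib libraries were thus under 3 counts. In control and CM the libraries with 4 to 13 counts were those of PSC5 and those labelled PSC4 number 1, and the other PSC4 libraries of these media had none. With no more than 13 counts in a library, no fold is read from them. A fitted value from the alternative with no filter is given in the section on processing.

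Per length, control cells held similar amounts of Egfr and Erbb2 transcript. In CPM per kilobase of exon, control means were 14.6 ± 4.22 for Egfr, 13.7 ± 0.944 for Erbb2, 0.517 ± 0.0882 for Erbb3 and 0.00836 ± 0.00794 for Erbb4 (SD, n = 5), and Egfr and Erbb2 did not differ beyond their spread. Egfr made up 49.8% ± 6.25 of the summed receptor level in control (SD, n = 5), 43.8% ± 5.57 with TGF-beta, 63.0% ± 3.91 in CM and 68.2% ± 2.80 with neratinib (SD, n = 4 each). The lowest share in CM was 57.2% and the highest in control 55.8%, so these groups did not overlap, while control and TGF-beta did. The ratio of Egfr to Erbb2 per length ran from 0.756 to 1.31 in control, from 0.671 to 1.07 with TGF-beta, from 1.44 to 2.02 in CM and from 1.93 to 2.61 with neratinib. Exon length was taken as the union of annotated exons, and with the longest transcript in its place the Egfr share in control was 51.4%.

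**Figure D3:**
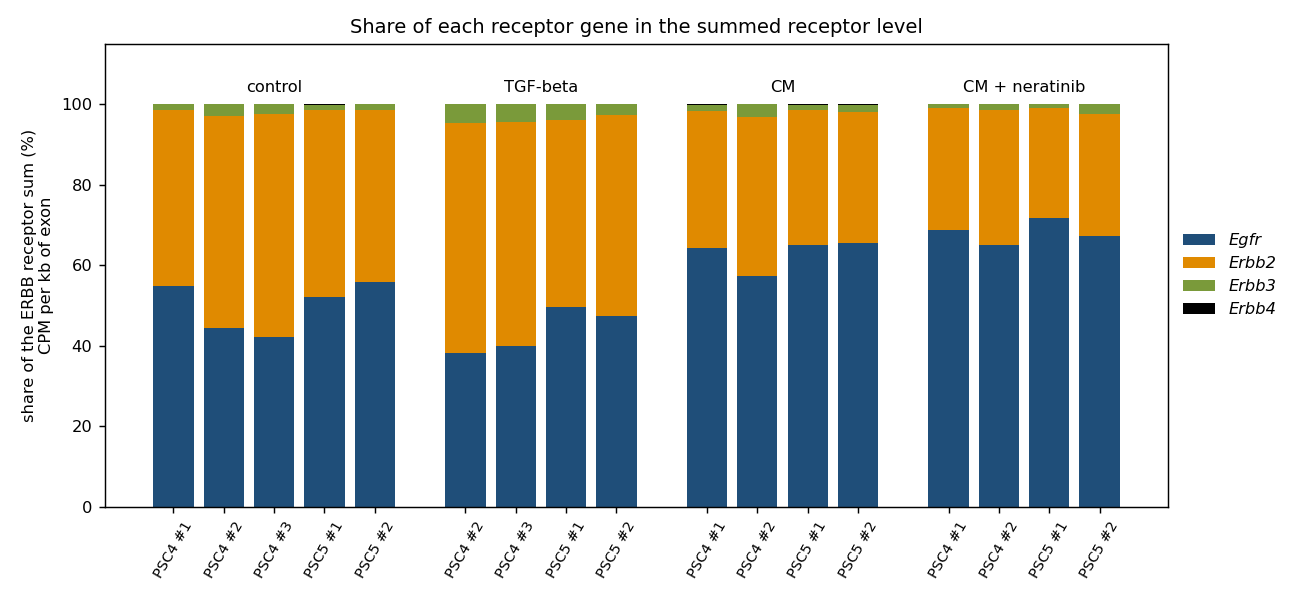
Share of each receptor gene in the summed receptor level (percent of CPM per kilobase of exon) in every library, grouped by medium. Egfr takes 57.2% to 71.7% in the 8 conditioned medium libraries and 38.3% to 55.8% in the other 9, and Erbb4 is at most a thin line at the top of a bar.

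Errfi1 (ENSMUSG00000028967, chr4:150853919-150868892, plus strand), the feedback inhibitor that binds the receptor kinase, had the largest change of the 7 tested members when neratinib was added to CM. Control libraries had 220, 168, 155, 210 and 245 CPM. TGF-beta libraries had 148, 151, 269 and 200 CPM, spread over and beyond the control range, with a log2 fold change of -0.12 (SE 0.12, edgeR adjusted p 0.471). In both media PSC5 libraries were higher than those of PSC4 numbers 2 and 3. CM libraries had 301, 228, 311 and 312 CPM, of which PSC4 number 2 fell within the control range and the other 3 lay above it. CM raised Errfi1 by 0.49 on the log2 scale (SE 0.12, edgeR adjusted p 0.0153). The call was lost without CM PSC4 number 1 (0.38, adjusted p 0.0555), without the T6 libraries (0.60, adjusted p 0.0507) and with no term for the line (0.53, adjusted p 0.0776). With neratinib the values were 109, 106, 151 and 144 CPM, below every control and CM library. Only TGF-beta PSC4 number 2, at 148 CPM, lay within their range. The fall from CM was to 0.437 of its level (log2 fold change -1.19, SE 0.13, edgeR adjusted p 8.08e-05). It was present in 4 of 4 pairs of the same line and number, from -1.47 to -1.04, was -1.30 in PSC4 and -1.08 in PSC5 (adjusted p 0.00348 and 0.0331), and was called in all 18 alternative fits. Neratinib libraries were also below control, with no overlap (log2 fold change -0.70, SE 0.12, edgeR adjusted p 0.000522), in all 19 alternative fits.

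Lrig1 (ENSMUSG00000030029, chr6:94604529-94700158, minus strand), a membrane protein that promotes receptor degradation, was higher in CM and lower with neratinib, as Errfi1 was. Control libraries had 200, 167, 155, 172 and 182 CPM, and CM libraries 294, 204, 255 and 255 CPM, all above control. The rise was 0.51 on the log2 scale (SE 0.14, edgeR adjusted p 0.0247). Within the lines it was 0.52 in PSC4 and 0.53 in PSC5, neither called on its own (edgeR adjusted p 0.138 and 0.205). The call over both lines was lost without CM PSC4 number 1 (0.36, adjusted p 0.0972), CM PSC5 number 1 (0.0534), control PSC4 number 3 (0.0501), control PSC5 number 1 (0.0674) or control PSC5 number 2 (0.0592). Neratinib libraries had 180, 138, 186 and 165 CPM, all below the CM libraries and inside or just under the control range. With neratinib, Lrig1 fell by 0.59 against CM on the log2 scale (SE 0.15, edgeR adjusted p 0.0108), in 4 of 4 pairs, and the difference from control was -0.09 (adjusted p 0.63). When the T6 libraries were left out the change against CM was of the same size but not called (-0.59, adjusted p 0.147). It was also not called with only the 2 groups in the fit, and was called in 16 of 18 alternative fits. TGF-beta libraries had 160, 169, 273 and 239 CPM, those of PSC5 above all control libraries and those of PSC4 within the control range. The log2 fold change was 0.22 (SE 0.14, edgeR adjusted p 0.218), and it was called with a block by line and number (0.29, adjusted p 0.014), with the PSC4 number 1 libraries left out (0.29, adjusted p 0.0199) or with them counted with PSC5 (0.27, adjusted p 0.0129). The exons of Lrig1 overlap those of Slc25a26 on the other strand by 144 bases. Slc25a26 was higher in CM as well (log2 fold change 0.39, edgeR adjusted p 0.0364) and differed by -0.02 with neratinib against CM (adjusted p 0.913), and the counts were not stated to use strand. Its level was low beside that of Lrig1, at 4.69 to 5.32 CPM in control and 6.21 to 7.42 CPM in CM. Its part in the Lrig1 counts was not tested.

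Lrig3 (ENSMUSG00000020105, chr10:125966168-126015359, plus strand), a relative of Lrig1, rose with TGF-beta. Control libraries had 56.0, 60.5, 64.0, 54.0 and 55.2 CPM and TGF-beta libraries 68.1, 74.4, 96.4 and 91.7 CPM, with no overlap. The log2 fold change was 0.50 (SE 0.10, edgeR adjusted p 0.000956), called in all 18 alternative fits. The rise was 0.24 in PSC4 (adjusted p 0.0954) and 0.78 in PSC5 (adjusted p 0.000823). The test of that difference gave 0.54 (SE 0.15, unadjusted p 0.00346) and an adjusted p of 0.814. In CM the values were 62.1, 54.4, 57.1 and 57.1 CPM, all within the control range, with a log2 fold change of -0.01 (SE 0.10, edgeR adjusted p 0.952). Neratinib libraries had 43.7, 51.5, 49.3 and 42.6 CPM, under every library of every other group. The difference from control was called (log2 fold change -0.31, SE 0.10, adjusted p 0.0206), but not without control PSC4 number 3 (adjusted p 0.0509), neratinib PSC4 number 1 (0.0614), neratinib PSC5 number 2 (0.0679), the PSC4 number 1 libraries (0.0602) or the T6 libraries (0.0808). The difference from CM, of -0.30 (SE 0.10), had an adjusted p of 0.0536 with edgeR and 0.0326 with DESeq2, and of 0.0369 with edgeR when neratinib PSC4 number 2 was left out.

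Cbl (ENSMUSG00000034342, chr9:44142976-44234049, minus strand), the ubiquitin ligase of activated receptors, rose with TGF-beta. Its control libraries had 86.7, 98.9, 89.3, 82.4 and 94.4 CPM and TGF-beta libraries 122, 131, 137 and 123 CPM, well apart. The log2 fold change was 0.51 (SE 0.06, edgeR adjusted p 1.62e-05), with 0.47 in PSC4 and 0.56 in PSC5 (adjusted p 0.00289 and 0.00318), and it was called in all 18 alternative fits. CM libraries had 80.9, 91.2, 85.9 and 84.6 CPM and neratinib libraries 90.0, 93.9, 85.4 and 83.3 CPM, over the same range as control. The log2 fold changes were -0.07 for CM against control (SE 0.06, adjusted p 0.484) and 0.04 for neratinib against CM (SE 0.07, edgeR adjusted p 0.703). CM differed from TGF-beta by -0.58 on the log2 scale (SE 0.07, edgeR adjusted p 9.04e-06).

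**Figure D4:**
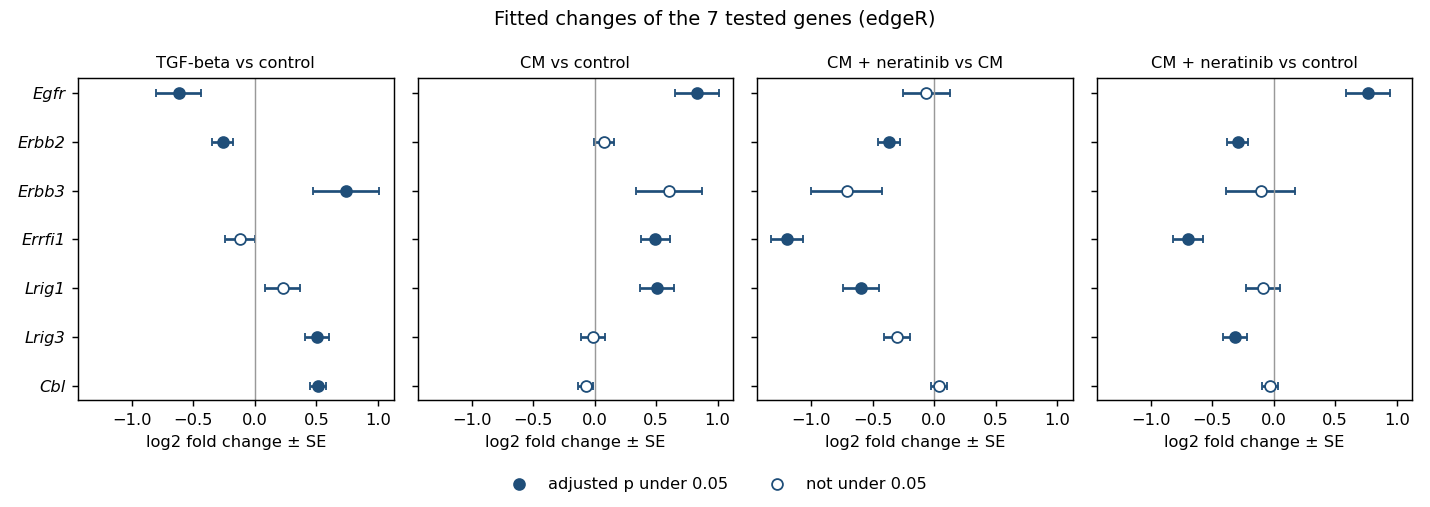
Fitted log2 fold change of the 7 tested genes with its standard error in 4 comparisons; filled points passed an adjusted p of 0.05 (edgeR). Lrig3 and Cbl moved up with TGF-beta while Egfr moved down, and the largest fall with neratinib against CM among these 7 was that of Errfi1 (-1.19).

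Errfi1 and Lrig1 were also set against Egfr in each library. The ratio of Errfi1 to Egfr per length was 3.93 ± 0.507 in control (SD, n = 5), 5.41 ± 0.261 with TGF-beta, 3.05 ± 0.279 in CM and 1.4 ± 0.201 with neratinib (SD, n = 4 each). No 2 of these 4 ranges overlapped: control ran from 3.38 to 4.49, TGF-beta from 5.11 to 5.66, CM from 2.69 to 3.36 and neratinib from 1.20 to 1.68. The ratio of Lrig1 to Egfr was 2.27 ± 0.542 in control, 3.82 ± 0.259 with TGF-beta, 1.72 ± 0.235 in CM and 1.20 ± 0.227 with neratinib, and here control overlapped CM, and CM overlapped neratinib. These ratios combine genes already described and carry no test. By level per length in control, the order was Errfi1 (55.7 ± 10.4 CPM per kilobase), Lrig1 (31.3 ± 3.02), Egfr, Erbb2, Cbl (7.32 ± 0.523) and Lrig3 (6.94 ± 0.504, SD, n = 5), and the neighbours Cbl and Lrig3 did not differ beyond their spread. By the longest transcript Lrig3 would stand at 14.4 and above Cbl.

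**Figure D5:**
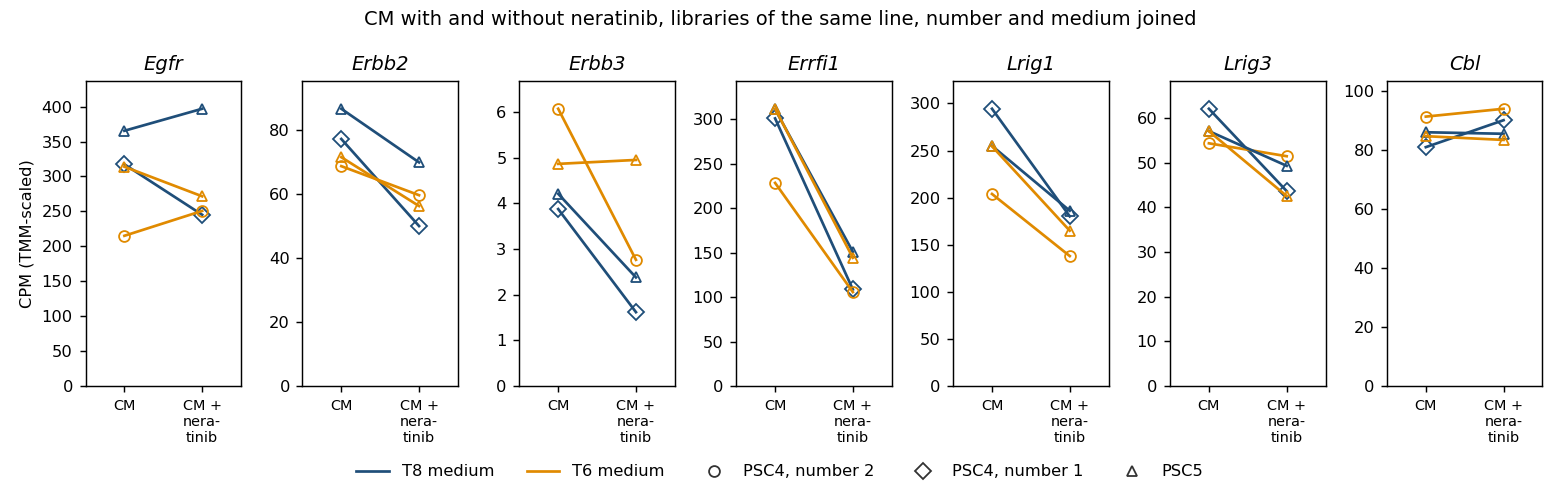
Level of each tested gene (CPM, linear axes from 0) in CM and in CM with neratinib, with lines joining libraries of the same line, number and medium code. Errfi1, Lrig1, Erbb2 and Lrig3 are lower with neratinib in 4 of 4 pairs, Erbb3 in 3 of 4, and Egfr and Cbl in 2 of 4.

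The 2 lines differed in level, and no difference in response was detectable after adjustment. Over all media PSC5 had more Egfr than PSC4 by 0.49 (SE 0.13, adjusted p 0.0431) and more Errfi1 by 0.41 (SE 0.09, edgeR adjusted p 0.0249), 2 of 7 members called against 6.97% of all genes. The Egfr call was lost in 14 of the 17 fits that left out 1 library, with adjusted p between 0.0506 and 0.0957, and held only without a library labelled PSC4 number 1. The Errfi1 call was lost in 7 of them: those without control PSC4 number 3 or PSC5 number 2, TGF-beta PSC4 number 2, PSC4 number 3 or PSC5 number 1, CM PSC4 number 2 or neratinib PSC4 number 2 (adjusted p 0.0507 to 0.0639). With all 3 PSC4 number 1 libraries left out, both differences were larger (0.67 and 0.53, adjusted p 0.000181 and 7.63e-05), and Erbb2 and Lrig1 were called too. Tests of whether the TGF-beta, CM or neratinib effect differed between the lines called none of the 7 genes, with edgeR or with DESeq2, and edgeR called 0% of all genes in each. At an unadjusted p under 0.05 these 3 edgeR tests had 601, 43 and 237 of 13923 genes, among them Lrig3 and Lrig1 for TGF-beta. The test of T6 against T8 media called none of the 7 members with edgeR or DESeq2, and 0.905% of all genes with edgeR; at an unadjusted p under 0.05 it had Erbb3 and Lrig1 (0.0114 and 0.0481).

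The ligand genes moved apart from each other. In the list of ERBB ligands and their shedding enzymes, 6 of 12 tested genes were called with TGF-beta (3 higher, 3 lower, against 40.2% of all genes), 5 with CM (3 and 2, against 14.2%) and 3 with neratinib against CM (1 and 2, against 20.5%). Their median log2 fold changes were -0.08, -0.04 and -0.30, and those of all genes -0.02, -0.00037 and 0.00082. Nrg1, a neuregulin that binds ERBB3 and ERBB4, fell from 79.7 ± 2.62 CPM in control (SD, n = 5) to 17.0 ± 5.44 CPM with TGF-beta and 50.1 ± 7.68 CPM in CM (SD, n = 4 each), with log2 fold changes of -2.23 and -0.67 (adjusted p 1.16e-06 and 0.0298, edgeR). With neratinib it fell further, to 27.5 ± 7.86 CPM (-0.86 against CM, edgeR adjusted p 0.00815). Hbegf, an EGFR and ERBB4 ligand, rose from 28.3 ± 10.4 to 121 ± 32.8 CPM with TGF-beta (2.04, edgeR adjusted p 3.25e-05). Ereg, epiregulin, rose from 24.6 ± 2.24 CPM to 78.4 ± 27.9 CPM in CM (1.66, edgeR adjusted p 0.00017) and stood at 75.7 ± 17.7 CPM with neratinib.

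Of 20 relay genes, which carry the signal from receptor to ERK and AKT, 10 were called with TGF-beta (8 higher, 2 lower, against 40.2% of all genes), 2 with CM (1 and 1, against 14.2%), 4 with neratinib against CM (3 and 1, against 20.5%) and 8 with neratinib against control (4 and 4, against 43.1%). These shares lay near those of all genes. Map2k1, the ERK kinase MEK1, rose in each of these comparisons: from 88.4 ± 6.47 CPM in control to 134 ± 7.04 with TGF-beta (0.60, adjusted p 7.73e-05) and 135 ± 17.5 in CM (0.62, adjusted p 0.000502), and on to 175 ± 16.6 CPM with neratinib (0.37 against CM, edgeR adjusted p 0.0114). Pik3r1, the regulatory subunit of PI3K, fell with TGF-beta (-1.15, adjusted p 0.000138) and was lower than control with neratinib (-1.0, edgeR adjusted p 0.000552). Plcg1 was lower in CM (-0.29, adjusted p 0.0112), and Akt1 was higher with neratinib against CM (0.34, edgeR adjusted p 0.011).

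Among 26 other genes of receptor attenuation, endocytosis and turnover, 11 were called with TGF-beta (7 higher, 4 lower, against 40.2% of all genes), 7 with CM (6 and 1, against 14.2%), 3 with neratinib against CM (all higher, against 20.5%) and 17 with neratinib against control (14 and 3, against 43.1%). The 3 genes higher with neratinib against CM included Ptpn12 (0.26, adjusted p 0.024), a tyrosine phosphatase, and Stam (0.26, edgeR adjusted p 0.0175), a sorting protein of endosomes. Dcn, which encodes decorin, a matrix proteoglycan that binds EGFR, fell with TGF-beta from 181 ± 39.6 to 50.5 ± 41.5 CPM (-2.01, adjusted p 0.0018) and rose in CM to 1537 ± 573 CPM (3.03, edgeR adjusted p 0.000407), where neratinib left it at 1583 ± 614 CPM. Eps15, an endocytic adaptor, rose with TGF-beta (0.57, adjusted p 1.86e-07), Ptprj, a receptor phosphatase, rose in CM (0.71, adjusted p 0.00794), and Sh3kbp1, an adaptor that joins CBL to the endocytic machinery, was lower than control with neratinib (-0.67, edgeR adjusted p 0.000194).

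ERK feedback and target genes moved in both directions with neratinib. Of 22, 12 were called with TGF-beta (8 higher, 4 lower, against 40.2% of all genes), 5 with CM (all higher, against 14.2%), 7 with neratinib against CM (3 higher, 4 lower, against 20.5%) and 12 with neratinib against control (8 higher, 4 lower, against 43.1%). The median log2 fold change was 0.32 for CM against control and -0.08 for neratinib against CM, beside -0.00037 and 0.00082 for all genes. Egr1, an immediate early factor, fell with neratinib from 363 ± 53.5 to 177 ± 54.2 CPM (-1.04, edgeR adjusted p 0.000831), and Spry1, a feedback inhibitor of the cascade, from 24.6 ± 6.56 to 11.2 ± 5.64 CPM (-1.14, edgeR adjusted p 0.0154), each in 4 of 4 libraries against the CM mean. Ier3 went the other way and was higher with neratinib than in control (1.42, edgeR adjusted p 0.000329). In CM the leading rises were Etv1 (1.00, adjusted p 0.00871) and Junb (0.94, adjusted p 0.00771), and with TGF-beta Spred2 (1.20, adjusted p 2.41e-06) and Dusp4 (1.03, edgeR adjusted p 0.00193).

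For each tested member, the genes whose log2 CPM ran most alike over the 17 libraries were listed among 9776 or 9777 genes with a mean of at least 10 CPM. For Egfr these were Dtwd1, Ptprk and Ptpn2 (Pearson r 0.95, 0.95 and 0.93), of which the last 2 are phosphatases in the attenuation list. For Errfi1 they were Rad18, Asb3 and Rpap1 (0.95, 0.91 and 0.90), for Lrig1 Crabp1, H3f3b and Blm (0.92, 0.89 and 0.88), and for Cbl Ssh1, Stim2 and Gng11 (0.97, 0.96 and 0.95). For Lrig3 they were Pappa, Tfpi2 and Ivns1abp (0.94, 0.93 and 0.92), and for Erbb2 Nfkbie, Lgals9 and Ccdc157 (0.93, 0.92 and 0.92). Erbb3, with few counts, reached only 0.81 with Pef1, 0.77 with Spn and 0.77 with Rassf3. The libraries share medium and line, so these values describe likeness of pattern over 4 media and carry no p.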

How the data were processed

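RNA of 17 libraries of mouse pancreatic stellate cells in 4 media was measured by mRNA sequencing. Each library has 1 deposited table of expected counts for Ensembl genes, estimated with Salmon 1.4.0 on GRCm38 (mm10) per the submitters' processing notes; the annotation release and strand setting were not given in the sources used here. Of values above 0, 74.8% were not whole, and all were rounded (no total moved by more than 307.9 counts). Gene names, positions and exon lengths came from GENCODE M21 on GRCm38, and promoters from RefSeq (GRCm38.p6). Counting error and depth limit the precision of low genes such as Erbb3, and the reads carried no molecular identifiers.

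Groups came from the labels. The quasi-likelihood test of edgeR 4.0.16 (R 4.3.3) was run on all 17 libraries together, with group and cell line as terms and TMM factors, after edgeR's filterByExpr had removed genes with few counts (minimum 10 in enough libraries of a group and 15 over all). A gene was called at a Benjamini-Hochberg adjusted p under 0.05 over 13923 genes, SE is the standard error of the log2 fold change, and CPM used TMM-corrected totals. Beside 5 group comparisons, 3 tests asked whether an effect differed between lines and 1 compared medium codes. The test was tried on simulated data. Alternatives were DESeq2 1.42.0, other scaling factors, no filter, other terms, fewer libraries and each library left out.

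Libraries of different groups share line and number, which is a passage of the line per the labels. After removal of group means, all 22 pairs of libraries with the same line and number correlated above 0.1 across genes (median 0.299), so the numbers pair the libraries; the block by line and number was an alternative.

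All 8 members were named whatever their values. From each of 4 pathway lists (15 ligand and shedding, 20 relay, 26 attenuation and 22 ERK genes) the 2 called genes with the largest change and at least 10 CPM in the higher group were named in each of 4 comparisons, and for each tested member the 3 genes with the most similar pattern (Pearson r of log2 CPM, prior count 2). The members and lists, written from general knowledge, were chosen with earlier results of these data known.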

Additional observations from a re-analysis of the deposited data

Results flagged for a closer look

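In each of 32 sets of values (8 genes in 4 groups), the highest and the lowest library were compared with the others of the group by the size of the gap to the nearest relative to the whole range (Dixon's limits). Chance alone sets apart about 1 in 20 groups, and 2 of 32 stood apart here. Errfi1 in CM PSC4 number 2 had 228 CPM, against 301 to 312 CPM in the other 3 CM libraries, a gap of 0.87 of the range and past the limit. That library is also the CM library with the lowest Egfr and Lrig1. It is coded T6, as is CM PSC5 number 2, which had the highest Errfi1 in CM (312 CPM). PSC4 numbers 2 and 3 also had the lowest Errfi1 in control, at 168 and 155 CPM against 210 to 245 CPM. The same held with TGF-beta, at 148 and 151 CPM against 200 and 269 CPM. Erbb4 in CM with neratinib PSC5 number 1 had 0.0432 CPM, against 0 in the other 3 neratinib libraries, which is a single count.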

How the results depend on the processing

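The number of members called depended most on which libraries entered. With no term for the line TGF-beta against control called 3 members. With the PSC4 number 1 libraries left out neratinib against control called 2 and PSC5 against PSC4 called 4. Neratinib against CM called 1 with only the 2 groups in the fit and 1 without the T6 libraries, an alternative chosen after seeing the data. In both it was Errfi1 that stayed, and the calls of Erbb2 and Lrig1 were lost. Fits that left out 1 library each called 2 to 5 members for TGF-beta against control, 1 to 3 for CM against control, 3 to 4 for neratinib against CM, 2 to 4 for neratinib against control, 5 to 6 for CM against TGF-beta and 0 to 2 for PSC5 against PSC4. The replicate block changed 1 call, that of Lrig1 with TGF-beta (0.29, adjusted p 0.014), and left every other call of the 5 group comparisons as it was. Of 373 values of single genes under other settings 348 kept their direction and side of the threshold, as did 306 of 361 with 1 library left out. No called change reversed. Uncalled ones did: Egfr for neratinib against CM (0.063 without the PSC4 number 1 libraries, -0.15 to 0.072 with 1 library left out), Erbb3 for neratinib against control (0.10, and -0.47 to 0.13), Lrig3 for CM against control (0.00058 with only the 2 groups, 0.035 without the T6 libraries, -0.060 to 0.034 with 1 library left out) and Lrig1 for neratinib against control (0.050 without the T6 libraries). Their causes were not tested. With no filter on low counts Erbb4 was called for neratinib against CM (-4.38, SE 1.33, adjusted p 0.0435, edgeR), a fitted value that rests on counts near 0 and is no bound. Depth limits Erbb3 and Erbb4.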

Other observations

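Values of further pathway genes, chosen after they were seen, are given here. Areg, amphiregulin, an EGFR ligand, was higher than control both with TGF-beta (log2 fold change 2.00, SE 0.33, adjusted p 0.000226) and in CM (1.68, SE 0.32, adjusted p 0.00417), and fell with neratinib against CM (-1.02, SE 0.34, adjusted p 0.0453, edgeR). Its mean level was under 10 CPM in control, in CM and with neratinib, so these folds rest on a gene of low level. The shedding protease Adam17, which releases EGFR ligands, was higher in CM (0.42, adjusted p 0.00961) and with neratinib (0.39, adjusted p 0.00403) than in control. Adam10 fell with TGF-beta (-0.35, adjusted p 0.00042, edgeR). Lrig2, the remaining Lrig gene, fell with TGF-beta (-0.49, adjusted p 0.0109) while Lrig3 rose, and Cblb, the relative of Cbl, rose with it (0.39, adjusted p 0.00189, edgeR). Dusp6, a phosphatase of ERK, rose in CM (0.68, adjusted p 0.0064) and fell with neratinib against CM (-0.51, adjusted p 0.0279, edgeR), the same directions as Errfi1 and Lrig1. Spry2 fell with TGF-beta (-0.82, adjusted p 0.00125, edgeR).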
